A study of Mus musculus with 46 samples.

Results

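The interferon-stimulated genes described here were 38 genes that cells switch on after exposure to interferon or viral nucleic acid. The rule lists them by name and uses no measured value, but the list was chosen with earlier results of these data known. All 38 were found among the 37108 gene symbols of the gene table and among the 35976 symbols of the iPSC transcript table. Their expression was followed by RNA-seq in mouse embryonic fibroblasts (MEFs) that received Oct4 together with either NanogBiD, the label NanogN70+Oct4, or native Nanog, the label Nanog+Oct4 and here NanogWT. NanogBiD is Nanog fused to the N-terminal domain of SS18 that binds BRG1, the ATPase of the BAF chromatin remodelling complex.

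The MEFs carried the OG2 Oct4-GFP reporter, and both combinations were delivered by pMXs retroviral vectors packaged in Plat-E cells, so every cell from day 0 (D0, the end of infection) had met a retrovirus. The 31 time-course libraries fell into 16 groups, NanogBiD and NanogWT each at D0 and D1, then every other day up to D7, and at D8, D10 and D12, each of 2 libraries except NanogBiD D8 with 1. Uninfected MEFs (2 libraries) and mouse ES cells labelled OG2 (mES, 1 library) were in the same table. A second table held 12 iPSC samples, 6 from each combination, with the same MEFs and mES. No infected control without the factors was analysed here, so exposure to the vector and the factors cannot be told apart. The medium was changed to iCD3 after infection, at D0, and to N2B27 with 2iL after about 7 days. Comparisons of D1 or later with D0 or MEFs therefore cross 1 change of medium up to D7 and a further change from D8, and medium and day cannot be told apart. Nothing states that the libraries of a group came from separate cultures, and p-values then measure only the spread between these libraries.

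Interferons are secreted proteins that signal through surface receptors and JAK kinases to transcription factors, among them STAT2 with IRF9, which bind the interferon-stimulated response element (ISRE) in the promoters of their targets. The targets include the sensors and transcription factors of the pathway itself, so the response can amplify its own components, and enzymes and binding proteins that restrict viral RNA, DNA or protein. Pluripotent cells are known for a weak response of this kind, while fibroblasts mount a strong one.

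The promoters show the element that many of the genes share. RefSeq promoters (250 bases before to 50 after a start site, GRCm38.p6) were found for 29 of the 38 genes. The letters GAAANNGAAA, the core of an ISRE, were searched on both strands, with overlapping matches each counted, and were present in a promoter of 14 of those 29 genes (48.3%), against 1079 of 27025 genes in all (3.99%). For 6 strongly changing genes of 5 roles and 1 more without a match, the stretch from 165 to 16 bases before the start site is given below, 5′ to 3′ on the strand of the gene, with matches in capitals. The forms TTTC and GAAA are the same letters on opposite strands.
Isg15, chr4:156200834-156200983, minus strand: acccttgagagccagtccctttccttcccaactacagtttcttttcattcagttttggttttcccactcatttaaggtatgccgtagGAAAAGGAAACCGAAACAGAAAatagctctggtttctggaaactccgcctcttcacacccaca
Ifit1, chr19:34640724-34640873, plus strand: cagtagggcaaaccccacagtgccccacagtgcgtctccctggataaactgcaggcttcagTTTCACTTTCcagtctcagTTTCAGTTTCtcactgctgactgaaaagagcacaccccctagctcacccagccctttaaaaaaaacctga
Ifit3, chr19:34583364-34583513, plus strand: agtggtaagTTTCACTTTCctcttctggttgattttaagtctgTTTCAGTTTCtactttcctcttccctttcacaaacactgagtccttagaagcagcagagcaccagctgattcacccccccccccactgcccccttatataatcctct
Rsad2, chr12:26456468-26456617, minus strand: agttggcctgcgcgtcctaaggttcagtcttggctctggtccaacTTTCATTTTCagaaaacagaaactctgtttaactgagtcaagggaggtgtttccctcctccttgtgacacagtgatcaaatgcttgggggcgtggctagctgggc
Oas3, chr5:120777675-120777824, minus strand: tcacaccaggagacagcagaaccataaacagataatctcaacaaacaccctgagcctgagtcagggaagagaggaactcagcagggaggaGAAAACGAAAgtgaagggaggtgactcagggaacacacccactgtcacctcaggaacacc
Gbp3, chr3:142559879-142560028, plus strand: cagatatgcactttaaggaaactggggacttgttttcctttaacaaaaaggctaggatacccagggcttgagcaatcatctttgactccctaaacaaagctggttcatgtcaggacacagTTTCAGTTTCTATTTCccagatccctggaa
Oasl2, chr5:114896769-114896918, plus strand: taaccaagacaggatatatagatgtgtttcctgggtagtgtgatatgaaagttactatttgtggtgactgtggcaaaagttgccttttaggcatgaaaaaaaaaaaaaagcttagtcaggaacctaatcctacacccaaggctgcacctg

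Isg15 carried 3 overlapping matches, with first bases at positions -78, -72 and -66 from the start site. Ifit1 had 2, at -104 and -85, and Ifit3 had 2, at -156 and -122. In Rsad2 the match began at -120 and in Oas3 at -75, while the 2 in this promoter of Gbp3 overlapped, at -45 and -39. The other genes with a match were Bst2, Cxcl10, Eif2ak2, Gbp2, Ifih1, Oas1a, Stat2 and Trim30a. No match lay in the window of Oasl2, Irf7, Ifi44, Xaf1 or 11 further genes, which says only that these letters were not in that window. The gamma-activated letters TTCNNNGAA were in a promoter of 24.1% of the 29 genes, against 9.55% of all genes.

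Several of the genes are neighbours in mm10 (GENCODE M21). Ifit2, Ifit3 and Ifit1 lay in that order on chromosome 19 between 34550694 and 34650009. Oasl2 and Oasl1, and apart from them Oas2, Oas3 and Oas1a, lay on chromosome 5, and Rsad2 and Cmpk2 lay head to head on chromosome 12. Dtx3l and Parp9 overlapped at their starts on chromosome 16. Reads of near-identical copies cannot be divided with certainty: 40.9% of the 100-base windows of Oas1a transcripts were shared with other genes (Oas1g), and 31.7% of those of Ifit3 (Ifit3b). The shares were 5.6% for Parp9, 5.2% for Dtx3l and 5.2% for Ifi35, and 33 genes stayed under 5%. A strand setting for the counting is not given in the sources used here, so genes with a partner on the other strand, such as Cxcl10 in Art3, are uncertain to that degree.

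Expression was in FPKM, read abundance scaled to transcript length and to the depth of the library, and differences are given as differences in mean log2(FPKM + 1) with standard errors (SE), a scale that understates the change of genes near 0. A gene was called when its limma p-value, adjusted by Benjamini-Hochberg over all genes tested, was under 0.05 and the difference reached 2-fold. All 38 genes passed the filter on low values of the time course. Of these, 34 would pass on the NanogBiD libraries alone, while Oas2, Oas3, Mx1 and Sp100 passed only through NanogWT, so a lower value in NanogBiD was built into their selection. Counts are read beside the share called among all genes tested. From D3 on, the main counts between the combinations are given without these 4 genes as well. As a check of the labels, 8 fibroblast markers summed to between 6487 and 7277 FPKM in MEFs and to 189.4 FPKM in mES, while 8 pluripotency markers summed to at most 1.41 FPKM in MEFs and to 3543 FPKM in mES. The 6 NanogWT libraries of D8 to D12 were 1.85 to 3.18 times as deep as the median library, and the other 28 were at 0.81 to 1.10 times, so depth and combination cannot be told apart from D8 on.

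At D0, directly after infection, most of the genes stood near their MEF level. In NanogBiD 4 of 38 genes were called against MEFs, beside 11.4% of all 16915 genes tested, and in NanogWT 2 of 38, beside 6.84%. The median difference over the 38 genes was 0.21 in NanogBiD and 0.20 in NanogWT, against 0.00 over all genes tested in both. Both comparisons use the same MEF libraries.

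Bst2, tetherin, which holds budding virus at the cell surface, was at 13.4 and 4.74 FPKM in MEFs, at 35.3 and 20.6 FPKM in NanogBiD D0 and at 49.7 and 7.98 FPKM in NanogWT D0. It rose in NanogBiD D0 (1.62 ± 0.59 SE, adjusted p = 0.0427), where both libraries were above both MEF libraries, whereas the NanogWT pair overlapped with the MEF pair. Irf1, an interferon-regulated transcription factor, fell in both, from 6.02 and 3.41 FPKM in MEFs to 1.65 and 1.77 FPKM in NanogBiD (-1.04 ± 0.26, adjusted p = 0.00454) and to 1.91 and 0.979 FPKM in NanogWT (-1.21 ± 0.26, adjusted p = 0.00215). Lgals3bp, a secreted galectin-binding glycoprotein, rose in NanogBiD from 11.2 and 9.8 FPKM to 33.8 and 23.7 FPKM (1.35 ± 0.29, adjusted p = 0.00124). The guanylate-binding protein Gbp3 rose there as well (1.29 ± 0.26, adjusted p = 0.000835). Usp18, the protease that removes ISG15 and dampens receptor signalling, rose in NanogWT, from 0.667 and 0 FPKM to 4.84 and 1.18 FPKM (1.47 ± 0.47, adjusted p = 0.0317), with 1 library far above the other.

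The 2 NanogWT D0 libraries differed widely in several of these genes. Isg15 was at 10.6 FPKM in replicate 1 and 0.335 FPKM in replicate 2, and 30 of the 38 genes were higher in replicate 1. Macrophage markers moved in the same direction. The sum over 8 of them (Ptprc, Adgre1, Csf1r, Itgam, Cd68, Tyrobp, Fcer1g and Lyz2) was 152.6 FPKM in replicate 1 and 51.3 FPKM in replicate 2, lay between 52.0 and 96.9 FPKM in NanogBiD D0, and was at most 9.36 FPKM in MEFs. From D3 to D7 the sum was 4.87 to 9.86 FPKM in the 6 NanogBiD libraries and 5.38 to 19.2 FPKM in the 6 NanogWT libraries. In bulk RNA, fewer cells of a type and less RNA per cell cannot be told apart. What part such cells had in the levels of D0 or later days was not tested.

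The rise began at D1. In NanogBiD 9 of 38 genes rose against D0, beside 5.06% of all 16842 genes tested, and in NanogWT 11 of 38, beside 4.61%. Irf7, the transcription factor that drives further interferon genes, was at 0.605 and 0.634 FPKM in NanogBiD D0 and at 8.13 and 3.32 FPKM at D1 (1.96 ± 0.34, adjusted p = 0.000327). It went from 2.51 and 0.884 FPKM to 6.75 and 4.04 FPKM in NanogWT (1.28 ± 0.34, adjusted p = 0.0113). Stat2 rose in both, by 1.55 ± 0.25 in NanogBiD (adjusted p = 0.000148) and by 1.42 ± 0.25 in NanogWT (adjusted p = 0.000357).

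The neighbours Rsad2, viperin, which makes a chain-ending nucleotide, and Cmpk2, a mitochondrial nucleotide kinase, rose together in both combinations at D1. Cmpk2 differed by 1.52 ± 0.25 in NanogBiD and 1.58 ± 0.25 in NanogWT, and Rsad2 by 1.30 ± 0.33 and 1.55 ± 0.33. Ifit1, which binds viral RNA that lacks a complete cap, also rose in both, by 1.46 ± 0.41 (adjusted p = 0.0129) and 1.63 ± 0.41 (adjusted p = 0.00704). Irf9, the DNA-binding partner of STAT2, was among the largest in NanogBiD (1.40 ± 0.19, adjusted p = 2.39e-05), and Ifih1 (1.33 ± 0.29, adjusted p = 0.00237) and Bst2 (1.74 ± 0.57, adjusted p = 0.0347) in NanogWT. The count at D1 depended on which libraries entered: with 1 replicate left out it was 1 without replicate 1 and 6 without replicate 2 in NanogBiD, and 8 and 5 in NanogWT.

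From D3 the response was broad. At D3, 27 of 38 genes rose against D0 in NanogBiD, beside 8.95% of all genes tested, and 33 of 38 in NanogWT, beside 9.55%. At D7 the counts were 21 of 38 in NanogBiD, beside 12.7%, and 36 of 38 in NanogWT, beside 12.0%. The median difference of the 38 genes from D0 was 1.70 at D3 and 1.33 at D7 in NanogBiD, and 2.43 and 3.04 in NanogWT, against 0.09 to 0.24 over all genes tested. These counts and medians include Oas2, Oas3, Mx1 and Sp100, which passed the filter only through NanogWT. A smaller rise in NanogBiD was built into their selection.

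By their mean levels, 29 of the 38 genes were highest at D3 in NanogBiD, and 33 were highest at D5 or D7 in NanogWT, 18 and 15 of them respectively. The D3 peak of NanogBiD rested in part on its replicate 2, which was above replicate 1 in 32 of 38 genes. Without that library 19 genes were highest at D3. No test was made of the peak day.

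**Figure D1:**
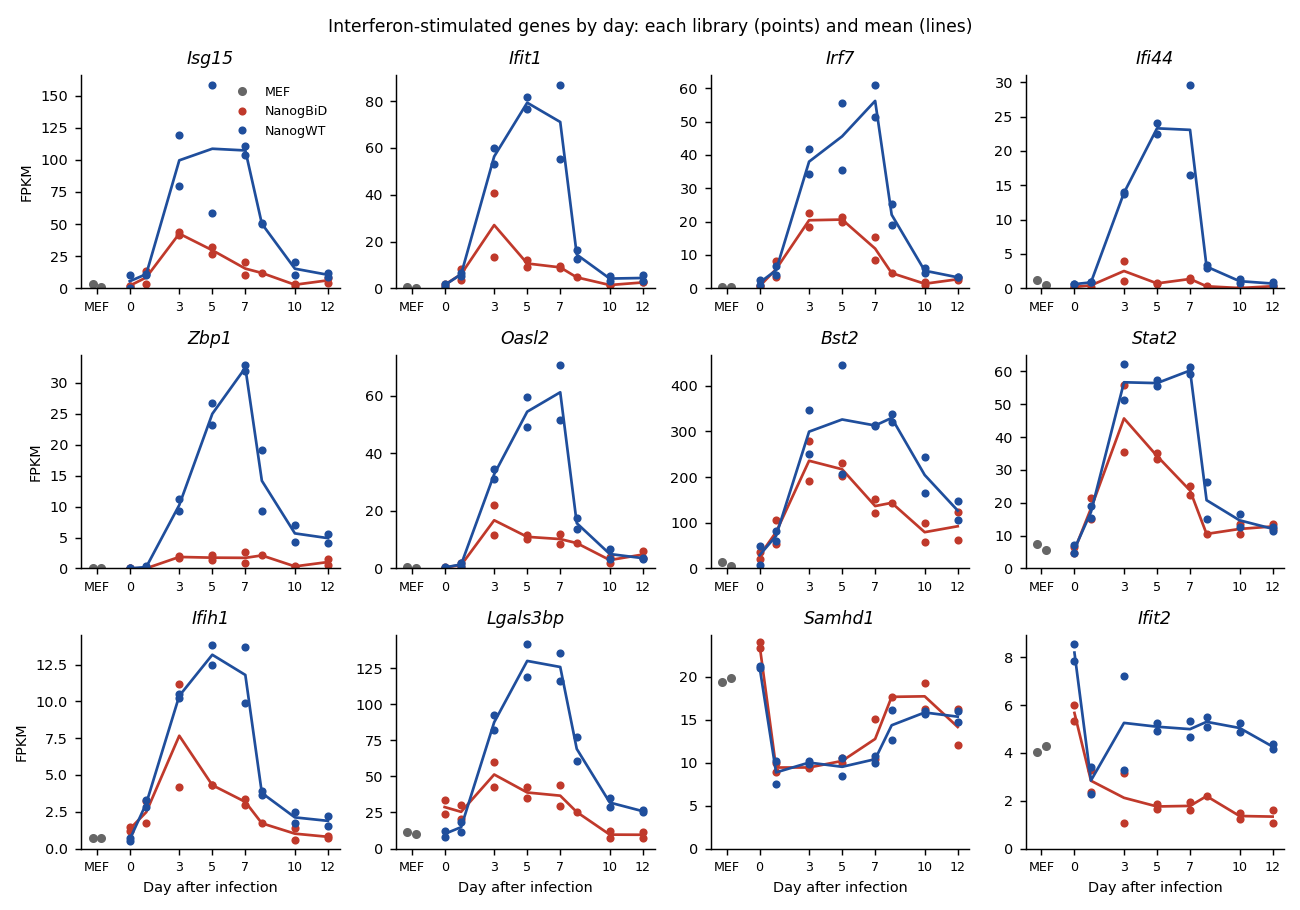
FPKM of 12 interferon-stimulated genes by day after infection; points are libraries, lines join the means of NanogBiD (red) and NanogWT (blue), and grey points are uninfected MEFs. The genes of the first 10 panels are highest between D3 and D8 and lower again at D10 and D12, while Samhd1 and Ifit2 are highest at D0.

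The sensors and transcription factors of the pathway were among the induced genes. Ifih1, MDA5, senses long double-stranded RNA in the cytosol. It was at 0.527 and 0.707 FPKM in NanogWT D0, 3.29 and 2.83 on D1, 10.3 and 10.5 on D3, 13.9 and 12.5 on D5, 9.88 and 13.7 on D7, 3.66 and 3.89 on D8, 2.48 and 1.76 on D10 and 1.53 and 2.23 on D12. In NanogBiD its pairs were 1.49 and 1.16, 3.24 and 1.71, 4.16 and 11.2, 4.33 and 4.29, and 3.35 and 2.99 FPKM from D0 to D7, then 1.72 in the D8 library, 1.41 and 0.613 at D10 and 0.729 and 0.867 at D12. At D5 and D7 both NanogWT libraries lay above both NanogBiD libraries, while the pairs overlapped at D3.

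Stat2 was at 7.34 and 5.71 FPKM in MEFs. Its NanogWT pairs were 4.63 and 7.13 on D0, 15.4 and 18.9 on D1, 51.1 and 62.2 on D3, 55.6 and 57.2 on D5, 61.5 and 59.1 on D7, 26.4 and 15.1 on D8, 16.6 and 12.7 on D10 and 12.7 and 11.4 FPKM on D12. In NanogBiD they were 4.65 and 6.47, 21.5 and 15, 35.4 and 55.9, 33.3 and 35.2, and 25.2 and 22.3 FPKM from D0 to D7, then 10.5 on D8, 13.6 and 10.5 on D10 and 13.5 and 12.1 on D12. By D12 the levels of the 2 combinations overlapped.

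Irf7 was near 0 in MEFs, at 0.305 and 0.331 FPKM. It reached 34.3 and 41.8 FPKM on D3, 35.5 and 55.7 on D5 and 61.1 and 51.4 on D7 in NanogWT, then 25.3 and 18.9 on D8, 6.09 and 4.47 on D10 and 3.31 and 3.27 on D12. NanogBiD reached 18.4 and 22.5, 21.4 and 19.9, and 15.4 and 8.40 FPKM on D3, D5 and D7, and was at 4.57 on D8, 1.74 and 0.98 on D10 and 3.07 and 2.35 on D12. Against D0 the rise at D7 was 4.47 ± 0.34 in NanogWT (adjusted p = 3.29e-09) and 2.94 ± 0.34 in NanogBiD (adjusted p = 1.04e-06).

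Dhx58, LGP2, a partner of MDA5, and Eif2ak2, PKR, the kinase that stops translation on double-stranded RNA, rose in both combinations at D3. Dhx58 in NanogWT was at 0.532 and 0.472 FPKM on D0, 1.06 and 0.784 on D1, 6.36 and 6.91 on D3, 7.52 and 11.7 on D5, 9.34 and 9.16 on D7, 3.02 and 2.44 on D8, 0.733 and 0.615 on D10 and 0.33 and 0.525 on D12. Its NanogBiD levels were 0.383 and 0.127, 2.58 and 0.856, 6.65 and 9.52, 5.08 and 3.95, and 3.14 and 3.52 FPKM from D0 to D7, 1.63 on D8, 0.642 and 0.225 on D10 and 0.663 and 0.656 on D12. The pairs overlapped at D3, and at D7 that of NanogBiD lay below.

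Zbp1, which senses left-handed nucleic acid and can trigger cell death, differed most between the combinations at D7. It was at 0.091 and 0 FPKM in MEFs and at 0 in both NanogWT D0 libraries, was at 0.405 and 0.03 on D1, and rose in NanogWT to 11.2 and 9.27 FPKM on D3, 23.3 and 26.8 on D5 and 32.9 and 32.0 on D7, before 19.1 and 9.28 on D8, 7.10 and 4.24 on D10 and 4.17 and 5.62 on D12. In NanogBiD it never exceeded 2.59 FPKM: 0 and 0.057 on D0, 0.027 and 0 on D1, 2.03 and 1.67 on D3, 1.29 and 2.19 on D5, 2.59 and 0.825 on D7, 2.10 on D8, 0.28 and 0.376 on D10 and 1.51 and 0.541 on D12.

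Among effectors, Isg15, a ubiquitin-like protein that is attached to other proteins, was at 3.56 and 1.10 FPKM in MEFs. In NanogWT it was at 10.6 and 0.335 on D0, 11.3 and 10.7 on D1, 79.5 and 120 on D3, 58.8 and 158 on D5, 111 and 103 on D7, 49.7 and 50.8 on D8, 20.3 and 10.2 on D10 and 12.2 and 8.74 FPKM on D12. The NanogBiD pairs were 2.04 and 1.95, 13.4 and 3.49, 43.7 and 41.4, 32.4 and 26.8, and 20.5 and 10.1 FPKM from D0 to D7, then 11.9 on D8, 3.48 and 2.06 on D10 and 8.36 and 4.00 on D12. From D3 on both NanogWT libraries were above both NanogBiD libraries on every day.

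Usp18 in NanogWT was at 4.84 and 1.18 FPKM on D0, 4.67 and 5.49 on D1, 37.1 and 39.5 on D3, 36.8 and 49.2 on D5, 37.9 and 45.9 on D7, 13.7 and 11.7 on D8, 5.1 and 3.2 on D10 and 2.62 and 3.34 on D12. Its NanogBiD libraries held 0.591 and 0.623, 5.12 and 1.65, 6.26 and 20, 9.05 and 7.69, and 7.88 and 6.74 FPKM from D0 to D7, 2.97 on D8, 1.33 and 0.765 on D10 and 2.41 and 0.622 on D12. The pairs did not overlap from D3 on. Trim25, an E3 ligase that acts on RIG-I, rose less. Against D0 it was called in NanogWT at D7 (1.05 ± 0.24, adjusted p = 0.00151) and not in NanogBiD (0.97 ± 0.24, adjusted p = 0.00274), and against MEFs it was called in both at D7 (1.43 ± 0.24 and 1.40 ± 0.24).

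Ifit1 and Ifit3 bind viral RNA and each other. Ifit1 was at 0.498 and 0.097 FPKM in MEFs, and in NanogWT at 1.95 and 0.72 on D0, 6.74 and 5.29 on D1, 59.8 and 53.0 on D3, 81.9 and 76.8 on D5, 55.2 and 87.1 on D7, 16.3 and 12.5 on D8, 5.21 and 3.10 on D10 and 3.10 and 5.71 FPKM on D12. In NanogBiD it was at 2.01 and 0.93, 8.32 and 3.72, 13.2 and 40.8, 12.2 and 9.07, and 9.37 and 8.51 FPKM from D0 to D7, then 4.68 on D8, 1.35 and 1.44 on D10 and 2.51 and 2.48 on D12. For both, NanogWT lay above NanogBiD in every library from D3 on. Ifit3 in NanogWT was at 1.12 and 0.523 FPKM on D0, 2.07 and 1.59 on D1, 15.6 and 12.1 on D3, 19.1 and 20.5 on D5, 16.6 and 24.7 on D7, 6.93 and 4.06 on D8, 2.78 and 1.84 on D10 and 2.68 and 3.28 on D12. Its values in NanogBiD were 0.393 and 0.253, 1.11 and 1.36, 2.05 and 2.95, 2.79 and 2.02, and 2.21 and 0.993 FPKM from D0 to D7, 1.11 on D8, 0.986 and 0.432 on D10 and 1.43 and 0.956 on D12, so that no NanogBiD library passed 2.95 FPKM.

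Ifit2, of the same gene cluster, did not share this course. It was at 4.03 and 4.27 FPKM in MEFs and highest on D0, and its NanogWT libraries held 7.83 and 8.57 FPKM on D0, 2.27 and 3.42 on D1, 7.23 and 3.29 on D3, 5.26 and 4.94 on D5, 4.66 and 5.33 on D7, 5.1 and 5.51 on D8, 5.23 and 4.86 on D10 and 4.17 and 4.36 on D12. Those of NanogBiD held 5.35 and 6.0, 2.38 and 3.3, 1.08 and 3.17, 1.86 and 1.66, and 1.97 and 1.6 FPKM from D0 to D7, 2.19 on D8, 1.22 and 1.5 on D10 and 1.05 and 1.62 on D12. At D1 it had fallen in NanogWT (-1.27 ± 0.27, adjusted p = 0.00206), and from D5 on NanogWT stayed above NanogBiD without overlap. Its correlation with the mean standardized level of the other 37 genes over the 33 time-course and MEF libraries was 0.141, a description over libraries that share days and combinations. Samhd1, which depletes the nucleotides that reverse transcription needs, had the lowest such value, -0.633: it was at 19.4 and 19.9 FPKM in MEFs, 23.4 and 24.1 in NanogBiD D0, and fell to 8.88 and 10.0 FPKM at D1 (-1.25 ± 0.17, adjusted p = 2.5e-05). In NanogWT it went from 21.3 and 21.1 to 7.56 and 10.2 FPKM, and it lay between 8.5 and 15.1 FPKM in all 12 libraries of D3 to D7.

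The OAS enzymes make the messenger that activates RNase L. Oasl2, an OAS-like protein, showed the largest rise of the 38 genes at D7: 0.474 and 0.182 FPKM at D0 against 51.7 and 70.8 FPKM at D7 in NanogWT (5.54 ± 0.35, adjusted p = 1.8e-10). Its NanogWT pairs were 1.80 and 0.956 on D1, 31 and 34.5 on D3, 49.3 and 59.7 on D5, 17.6 and 13.8 on D8, 6.80 and 3.20 on D10 and 3.36 and 3.77 FPKM on D12. In NanogBiD they were 0.294 and 0.411, 1.76 and 0.549, 11.6 and 21.9, 11.7 and 10.3, and 11.8 and 8.61 FPKM from D0 to D7, then 8.80 on D8, 3.98 and 1.84 on D10 and 6.05 and 3.60 on D12. From D3 to D8 the pairs did not overlap, and at D12 they did.

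Oas2 in NanogWT was at 0.026 and 0.049 FPKM on D0, 0.026 and 0 on D1, 1.92 and 1.73 on D3, 4.34 and 5.05 on D5, 8.68 and 9.82 on D7, 4.01 and 1.68 on D8, 1.16 and 0.403 on D10 and 0.562 and 0.815 on D12. It stayed under 1 FPKM in every NanogBiD library, with 0.024 and 0, 0.08 and 0, 0.297 and 0.402, 0.297 and 0.213, and 0.677 and 0.436 FPKM from D0 to D7, 0.522 on D8, 0.413 and 0.247 on D10 and 0.744 and 0.356 on D12. Oas1a, whose reads overlap with those of Oas1g, was at 2.42 and 0.377 FPKM on D0, 4.65 and 1.98 on D1, 22.5 and 18.6 on D3, 27.2 and 27.9 on D5, 24.3 and 30.7 on D7, 9.78 and 8.37 on D8, 3.4 and 3.84 on D10 and 3.04 and 3.46 on D12 in NanogWT. In NanogBiD it was at 1.22 and 0.945, 2.36 and 0.798, 10.3 and 11.2, 10.4 and 6.54, and 8.0 and 5.23 FPKM from D0 to D7, 8.81 on D8, 7.47 and 4.24 on D10 and 9.24 and 4.41 on D12, below NanogWT on D3 to D7 and above it on D10 and D12 in both libraries. Of the other 2 OAS genes, Oas3 reached 3.72 and 3.85 FPKM in NanogWT D7 and at most 0.436 FPKM in NanogBiD, whereas Oasl1 was at 5.74 and 8.29 FPKM in NanogWT D7 and at 5.77 and 8.44 FPKM in NanogBiD D3, its highest means.

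Of the restriction factors, Bst2 reached the highest level of the 38 genes. In NanogWT it was at 82.9 and 59.5 FPKM on D1, 251 and 348 on D3, 206 and 446 on D5, 315 and 311 on D7, 321 and 338 on D8, 245 and 164 on D10 and 148 and 106 on D12. In NanogBiD it was at 106 and 52.7, 279 and 192, 231 and 203, and 151 and 122 FPKM from D1 to D7, then 144 on D8, 100 and 58.7 on D10 and 123 and 62.1 FPKM on D12. The pairs overlapped at D3 and D5. Mx1, a dynamin-like GTPase that blocks virus in the nucleus, was at 0 and 0 FPKM on D0, 0.274 and 0.218 on D1, 4.13 and 2.87 on D3, 6.9 and 4.57 on D5, 6.65 and 6.83 on D7, 1.47 and 0.597 on D8, 0.235 and 0.282 on D10 and 0.209 and 0.582 on D12 in NanogWT. NanogBiD held 0.023 and 0, 0.176 and 0.043, 0.276 and 1.25, 0.275 and 0.108, and 0.125 and 0.182 FPKM from D0 to D7, 0.067 on D8, 0.025 and 0.025 on D10 and 0.198 and 0.102 on D12.

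The head-to-head neighbours Rsad2 and Cmpk2 were both near 0 in MEFs, Rsad2 at 0 in both libraries and Cmpk2 at 0.12 and 0.156 FPKM. Rsad2 in NanogWT was at 0.036 and 0.017 FPKM on D0, 2.26 and 1.77 on D1, 12.3 and 6.88 on D3, 13.9 and 9.41 on D5, 9.29 and 11.4 on D7, 2.01 and 0.987 on D8, 0.344 and 0.355 on D10 and 0.277 and 0.805 on D12, and in NanogBiD at 0.325 and 0.032, 2.43 and 1.42, 4.4 and 9.68, 2.31 and 3.4, and 2.86 and 2.39 FPKM from D0 to D7, 1.65 on D8, 0.605 and 0.429 on D10 and 2.6 and 1.02 on D12. Cmpk2 in NanogWT was at 1.11 and 0.52 FPKM on D0, 4.96 and 3.83 on D1, 16.8 and 15.7 on D3, 17 and 15.8 on D5, 14.1 and 18.3 on D7, 4.21 and 3.64 on D8, 1.3 and 1.18 on D10 and 1.39 and 1.51 on D12, and in NanogBiD at 0.375 and 0.859, 4.33 and 2.95, 6.69 and 13.3, 5.6 and 4.47, and 5.04 and 3.5 FPKM from D0 to D7, 3.72 on D8, 1.42 and 1.83 on D10 and 1.51 and 1.93 on D12. For both genes the pairs lay apart at D5 and D7, and at D12 Rsad2 was higher in both NanogBiD libraries.

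Trim30a, a TRIM protein induced by interferon, was at 0.268 and 0.141 FPKM on D0, 0.383 and 0.291 on D1, 2.96 and 3.87 on D3, 10.1 and 7.42 on D5, 8.94 and 11.4 on D7, 3.02 and 1.53 on D8, 1.49 and 1.08 on D10 and 1.26 and 1.78 on D12 in NanogWT. Its NanogBiD course was 0.366 and 0.213, 0.176 and 0.227, 0.966 and 2.67, 1.38 and 0.825, and 1.4 and 1.19 FPKM from D0 to D7, 0.645 on D8, 0.033 and 0.151 on D10 and 0.038 and 0.136 on D12. Every NanogWT library of D3 to D12 was above every NanogBiD library of its day. Mx2 reached 4.17 and 5.47 FPKM in NanogWT D5 and 1.59 and 3.73 FPKM in NanogBiD D3.

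The guanylate-binding proteins Gbp2 and Gbp3 are GTPases that attack the membranes around pathogens. Gbp2, at 1.79 and 0.756 FPKM in MEFs, was at 2.78 and 2.14 FPKM on D0, 1.21 and 1.35 on D1, 17.1 and 15.3 on D3, 26.3 and 28.4 on D5, 28.1 and 24.5 on D7, 29.1 and 18.3 on D8, 14.5 and 13.7 on D10 and 9.22 and 12.3 on D12 in NanogWT. In NanogBiD it was at 1.13 and 2.07, 1.3 and 1.22, 7.27 and 14.2, 13.4 and 8.96, and 11.1 and 8.57 FPKM from D0 to D7, 8.7 on D8, 3.35 and 2.48 on D10 and 2.33 and 1.51 on D12. Gbp3 in NanogWT was at 1.37 and 0.692 FPKM on D0, 1.64 and 1.41 on D1, 9.77 and 7.91 on D3, 12 and 14.7 on D5, 11.3 and 14.6 on D7, 8.95 and 5.59 on D8, 4.78 and 2.95 on D10 and 2.78 and 2.85 on D12, and in NanogBiD at 2.63 and 1.32, 1.96 and 1.42, 6.42 and 9.83, 5.55 and 4.07, and 4.22 and 4.21 FPKM from D0 to D7, 3.14 on D8, 0.968 and 0.592 on D10 and 0.619 and 0.408 on D12. Both were above NanogBiD in each NanogWT library of D5 to D12.

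Dtx3l, a ubiquitin ligase that works as a pair with Parp9, was at 1.59 and 1.5 FPKM on D0, 4.25 and 3.99 on D1, 16.8 and 15.6 on D3, 21.4 and 18.8 on D5, 20.4 and 21.2 on D7, 10.8 and 8.43 on D8, 6.67 and 5.22 on D10 and 4.56 and 6.02 on D12 in NanogWT. Its NanogBiD values were 1.63 and 1.51, 5.17 and 2.97, 8.62 and 16.1, 9.86 and 9.59, and 12 and 8.96 FPKM from D0 to D7, 7.62 on D8, 6.58 and 4.38 on D10 and 6.64 and 5.25 on D12. From D10 the pairs overlapped. Parp9 and Parp14 peaked at 26.6 and 28.6 FPKM (D5) and at 11.1 and 12.1 FPKM (D7) in NanogWT, and at 14.8 and 18.9 and at 4.61 and 8.50 FPKM (D3) in NanogBiD.

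Of the secreted proteins, Lgals3bp was the higher. Its NanogWT pairs were 12.1 and 8.17 FPKM on D0, 18.3 and 11.3 on D1, 82.3 and 92.6 on D3, 119 and 141 on D5, 116 and 136 on D7, 77.2 and 60.8 on D8, 34.8 and 28.9 on D10 and 25 and 26.7 on D12. In NanogBiD it was at 33.8 and 23.7, 30.1 and 20.7, 42.6 and 59.9, 42.7 and 34.9, and 43.9 and 29.3 FPKM from D0 to D7, 25.3 on D8, 12.3 and 6.97 on D10 and 11.5 and 7.55 on D12. NanogBiD began above NanogWT at D0 and D1 and was below it in both libraries from D3 on. The chemokine Cxcl10 stayed low, at most 3.9 FPKM in any library.

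Among the other induced genes, Ifi44 in NanogWT was at 0.65 and 0.566 FPKM on D0, 0.856 and 0.852 on D1, 13.7 and 14.1 on D3, 22.5 and 24.1 on D5, 16.5 and 29.6 on D7, 3.37 and 2.94 on D8, 1.31 and 0.765 on D10 and 0.447 and 0.933 on D12. In NanogBiD it was at 0.148 and 0.253, 0.714 and 0.138, 1.04 and 3.99, 0.638 and 0.784, and 1.23 and 1.48 FPKM from D0 to D7, 0.291 on D8, 0.023 and 0.047 on D10 and 0.236 and 0.355 on D12, and its MEF values were 1.15 and 0.418 FPKM. Xaf1, a partner of the apoptosis inhibitor XIAP, was at 2.13 and 1.44 FPKM on D0, 6.27 and 3.65 on D1, 23.6 and 24.3 on D3, 34.8 and 38.5 on D5, 28.5 and 42.2 on D7, 15.2 and 12.1 on D8, 6.48 and 4.45 on D10 and 3.56 and 5.46 on D12 in NanogWT, and at 2.2 and 1.12, 3.46 and 1.68, 9.49 and 18.5, 9.53 and 6.9, and 9.25 and 7.88 FPKM from D0 to D7, 7.17 on D8, 2.2 and 1.18 on D10 and 2.9 and 2.42 on D12 in NanogBiD. Both genes lay higher in NanogWT in each library from D3 on. Sp100, a component of nuclear bodies, passed 1 FPKM only in NanogWT, in 9 libraries, with 5.45 and 5.57 FPKM at D7.

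Ifi27 was highest later than the other genes of its group in NanogWT, at D8, though not in NanogBiD, where all 5 were highest at D3. Ifi27, a mitochondrial protein, was at 20.2 and 7.95 FPKM on D0, 29.3 and 16.5 on D1, 22.1 and 16.9 on D3, 26.5 and 27 on D5, 34.7 and 27.8 on D7, 43.4 and 56.3 on D8, 49.5 and 38.3 on D10 and 39.1 and 33.7 on D12 in NanogWT, and at 14.1 and 9.69, 17 and 9.32, 27.2 and 21.7, 23.4 and 22.7, and 18.1 and 17.2 FPKM from D0 to D7, 15 on D8, 8.57 and 5.1 on D10 and 11.3 and 6.89 on D12 in NanogBiD. Each NanogWT library of D8 and D10 was above both of D7. Ifi35 was at 15 and 6.51 FPKM on D0, 14.9 and 7.91 on D1, 22 and 26 on D3, 21.4 and 31.3 on D5, 29.1 and 26.9 on D7, 15.9 and 16.2 on D8, 15 and 10.8 on D10 and 12.2 and 9.67 on D12 in NanogWT, and at 11.5 and 10.5, 15.7 and 11.1, 19.5 and 21.1, 18 and 14.4, and 12.9 and 8.82 FPKM from D0 to D7, 9.26 on D8, 4.46 and 2.99 on D10 and 4.76 and 4.4 on D12 in NanogBiD. The pairs of Ifi35 overlapped up to D1 and lay apart from D3 on.

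Irf1 was still higher at D8 than at D3 in both combinations. After 6.02 and 3.41 FPKM in MEFs it was at 1.91 and 0.979 FPKM on D0, 3.77 and 3.32 on D1, 6.97 and 7.17 on D3, 6.82 and 7.48 on D5, 9.19 and 7.03 on D7, 9.36 and 8.22 on D8, 8.82 and 7.62 on D10 and 5.26 and 3.81 on D12 in NanogWT. NanogBiD was at 1.65 and 1.77, 3.92 and 2.61, 6.32 and 3.92, 6.08 and 5.33, and 7.26 and 4.72 FPKM from D0 to D7, 9.67 on D8, 7.74 and 5.34 on D10 and 8.3 and 6.12 on D12. By D12 both NanogBiD libraries were above both NanogWT libraries.

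**Figure D2:**
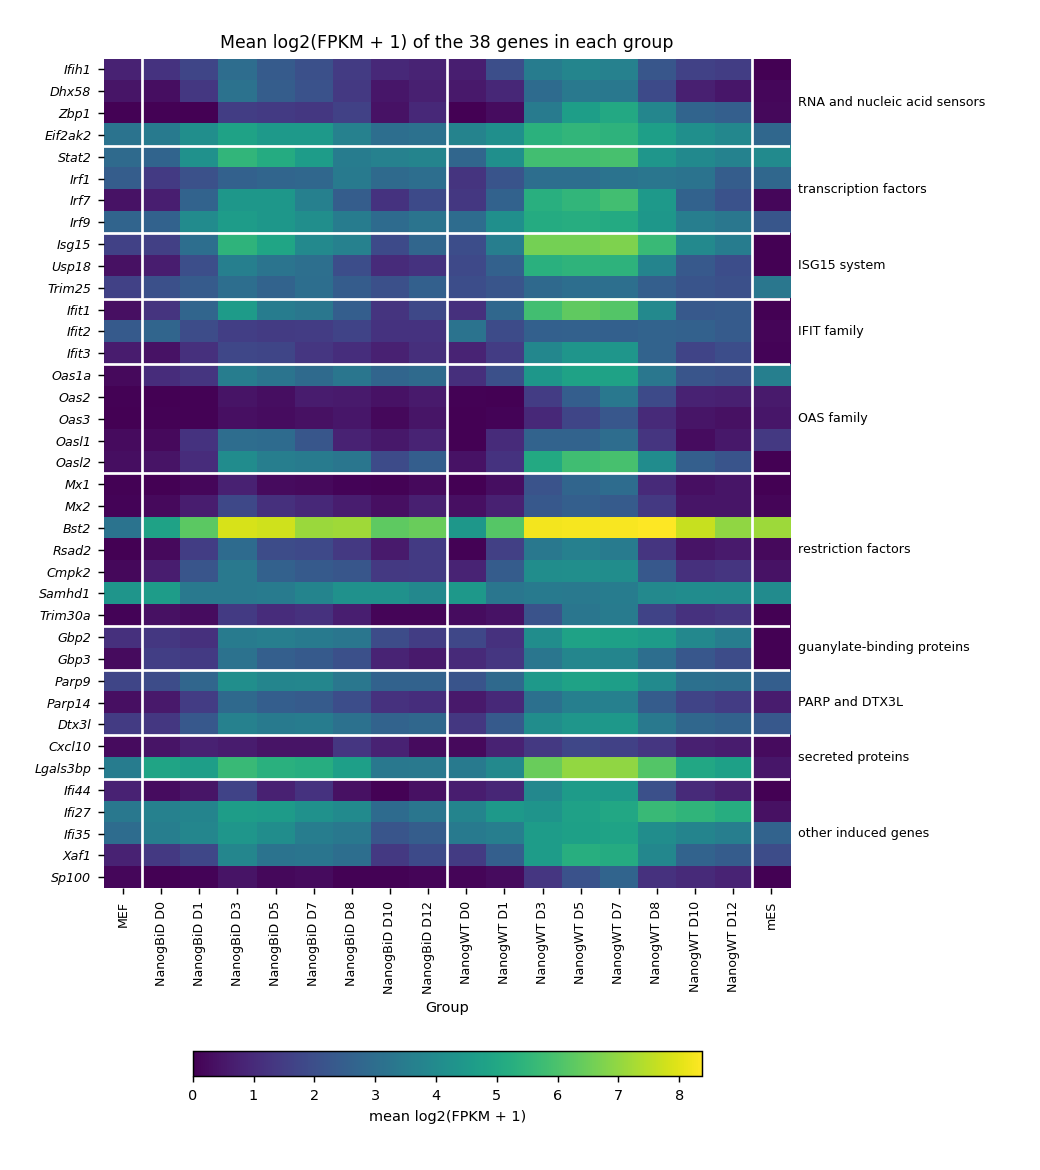
Mean log2(FPKM + 1) of the 38 genes (rows, grouped by role) in MEFs, in NanogBiD and NanogWT at each day and in mES (columns); brighter cells are higher. The NanogWT columns of D3 to D7 are the brightest block in most rows, and Bst2 is the brightest row.

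The comparison of NanogBiD with NanogWT at matched days sets the fusion with the BRG1-binding domain beside native Nanog. Vector dose and factor level were not compared between the combinations here, so dose and fusion cannot be told apart. Hardly any of the genes differed by the test at D0 and D1, where 1 of 38 and 0 of 38 were called by limma, beside 0.76% and 1.33% of all genes tested. The median differences were -0.02 and -0.07. An unadjusted limma p under 0.05 was found for 2 and 3 of the 38, beside 2668 and 2266 of all 16842 genes. The 1 gene was Lgals3bp, higher in NanogBiD at D0 (1.42 ± 0.29, adjusted p = 0.0129).

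From D3 NanogBiD was lower. At D3, 7 of 38 genes were lower in NanogBiD, beside 2.45% of all genes tested. At D5 there were 25 of 38, beside 3.28%, and at D7 28 of 38, beside 4.65%. Without the 4 genes that passed the filter only through NanogWT the counts were 5, 21 and 24 of 34, beside 2.25%, 2.94% and 4.24% of the 16075 genes that pass on NanogBiD libraries. None of the 38 was called higher in NanogBiD on these days. The median difference over the 38 genes was -0.62 on D3, -1.35 on D5 and -1.51 on D7, against 0.04, 0.08 and 0.08 over all genes tested, and -0.52, -1.28 and -1.38 over the 34 genes. The count at D3 rested on the NanogBiD libraries: it was 15 without replicate 2 of NanogBiD D3, an alternative chosen after seeing the data, and 3 without replicate 1 and 12 without replicate 2 of both groups. At D5 it was 16 without replicate 2.

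Ifi44 differed by -2.22 ± 0.30 on D3 (adjusted p = 4.79e-05), -3.83 ± 0.30 on D5 (adjusted p = 4.48e-08) and -3.30 ± 0.30 on D7 (adjusted p = 1.2e-07). Zbp1 differed by -1.98 ± 0.32, -3.26 ± 0.32 and -3.71 ± 0.32, the last with adjusted p = 5.3e-08. For Ifit3 the differences were -2.09 ± 0.27, -2.62 ± 0.27 and -3.07 ± 0.27. In all 3 genes, which were picked for large differences, the NanogWT pair lay above the NanogBiD pair on each day without overlap.

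Ifit1 was lower by the test at D5 (-2.80 ± 0.41, adjusted p = 6.57e-05) and D7 (-2.82 ± 0.41, adjusted p = 3.3e-05). Isg15 was called at D7 (-2.81 ± 0.69, adjusted p = 0.00463) and not at D5 (adjusted p = 0.11), although the pairs did not overlap there. Oasl2 differed by -2.47 ± 0.35 (adjusted p = 2.31e-05) at D7. For Oas2 and Mx1, which passed the filter only through NanogWT, the levels given above stand as a description. The D5 differences of Usp18, Trim30a and Oasl2 were -2.22 ± 0.47, -2.21 ± 0.25 and -2.21 ± 0.35.

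By role, at D7 the genes lower in NanogBiD were 3 of 3 IFIT genes, 4 of 5 OAS genes, 5 of 7 restriction factors, 2 of 2 guanylate-binding proteins, 2 of 2 secreted proteins, 3 of 4 sensors, 2 of 3 genes of the ISG15 system, 2 of 4 transcription factors, 1 of 3 PARP and DTX3L genes and 4 of 5 other induced genes, with Oas2, Oas3, Mx1 and Sp100 among them. The 10 that were not called at D7 were Samhd1, Trim25, Irf1, Oasl1, Ifi27, Parp9, Eif2ak2, Dtx3l, Irf9 and Bst2. All but Samhd1 had a difference below 0. The median ratio of the peak mean in NanogWT to that in NanogBiD was 1.80 over the 38 genes, with Oas2, Oas3, Mx1 and Sp100 included. Among the other 34 genes the ratio ran from 0.893 for Samhd1 to 15.5 for Zbp1. The NanogBiD peak of Zbp1 was 2.10 FPKM, in the 1 library of D8.

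**Figure D3:**
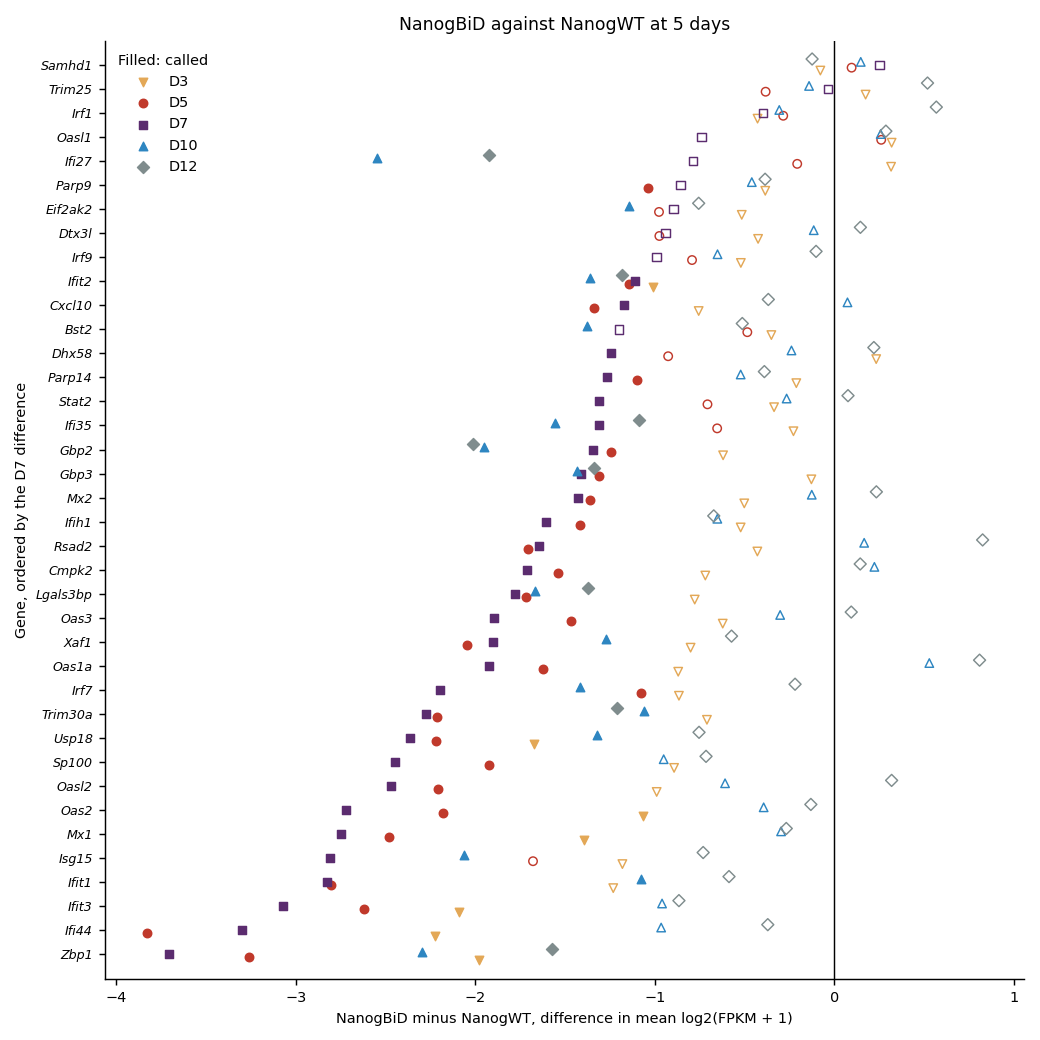
Difference in mean log2(FPKM + 1) between NanogBiD and NanogWT for each of the 38 genes at D3, D5, D7, D10 and D12, ordered by D7; filled symbols are called (adjusted p under 0.05 and 2-fold). At D7, 37 of 38 genes lie below 0 and 28 are called, and at D12, 8 are called, led by Gbp2 and Ifi27. The 38 include Oas2, Oas3, Mx1 and Sp100, which passed the filter only through NanogWT.

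The change from D0 itself differed between the combinations. The interaction test called 16 of 38 genes as having the lower change in NanogBiD at D5, beside 3.94% of all genes tested. At D7 it called 22 of 38, beside 4.88%. Without the 4 genes that passed the filter only through NanogWT these were 12 and 18 of 34, beside 3.71% and 4.56%. At D7 the largest of the 34 were Zbp1 (-3.75 ± 0.45, adjusted p = 1.15e-05), Lgals3bp (-3.20 ± 0.41, adjusted p = 2.65e-05), Ifit1 (-2.92 ± 0.58, adjusted p = 0.00159), Ifi44 (-2.88 ± 0.43, adjusted p = 0.000112), Ifit3 (-2.63 ± 0.38) and Oasl2 (-2.50 ± 0.49). The counts over 38 genes fell to 10 at D5 without replicate 1 and to 10 at D7 without replicate 2.

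Markers of cell state moved with these differences. From D3 to D7 the 8 fibroblast markers summed to 393.4 to 601.1 FPKM in NanogBiD and 741.3 to 1146 FPKM in NanogWT, and the 8 pluripotency markers to 6.36 to 108.9 and 0.79 to 3.56 FPKM. The 8 macrophage markers summed to 4.87 to 9.86 FPKM in NanogBiD and 5.38 to 19.2 FPKM in NanogWT. The part of these markers in the lower levels of the 38 genes was not tested.

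The response then declined in both combinations. Comparisons of D7 or earlier with D8 or later cross a change of medium, so medium and day cannot be told apart in them. In NanogWT they also cross a rise in depth, as the D8 and D10 libraries were deeper than those of D7. The part of medium and depth in the decline was not tested. From D7 to D8 the median gene kept 69.3% of its mean FPKM in NanogBiD, where D8 is 1 library, and 38.6% in NanogWT. Between D7 and D10, a comparison chosen after the values were seen, 21 of 38 genes fell in NanogBiD, beside 7.78% of all genes tested, and 30 of 38 in NanogWT, beside 4.59%. None rose. In NanogWT the largest falls were Ifit1 (-3.80 ± 0.41, adjusted p = 9.96e-07), Ifi44 (-3.52 ± 0.30), Oasl2 (-3.42 ± 0.35), Irf7 (-3.19 ± 0.34), Usp18 (-3.08 ± 0.47), Rsad2 (-3.06 ± 0.33), Cmpk2 (-2.93 ± 0.25) and Isg15 (-2.81 ± 0.69).

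In NanogBiD the same contrast was led by Irf7 (-2.41 ± 0.34, adjusted p = 1.63e-05), Isg15 (-2.06 ± 0.69, adjusted p = 0.0237), Ifit1 (-2.05 ± 0.41) and Usp18 (-2.03 ± 0.47), followed by Xaf1 (-1.85 ± 0.32), Lgals3bp (-1.84 ± 0.29), Oasl1 (-1.70 ± 0.29) and Dhx58 (-1.61 ± 0.25). With Oas2, Oas3, Mx1 and Sp100 included, the median gene at D12 was at 14.8% of its peak mean in NanogWT and 24.0% in NanogBiD.

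The decline did not reach the D0 or MEF level for every gene. At D12, 11 of 38 genes were called against D0 in NanogBiD (8 higher and 3 lower), beside 34.7% of all genes tested, and 11 of 38 in NanogWT, all higher, beside 16.2%. All genes tested had themselves moved up by a median of 0.34 in NanogBiD and 0.19 in NanogWT, against 0.53 and 0.78 for the 38 genes, and with quantile normalization the NanogBiD median of the 38 genes was -0.03. Against MEFs the counts were 10 of 38 in NanogBiD, beside 31%, and 19 of 38 in NanogWT, beside 17.3%. In NanogBiD both shares were below that of all genes. The 4 counts moved by over 1.5 times with the pseudocount or the scaling. Bst2 was the largest against MEFs in both, at 3.28 ± 0.59 in NanogBiD (adjusted p = 7.24e-05) and 3.79 ± 0.59 in NanogWT (adjusted p = 2.63e-05).

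Against D0, Oasl2 (2.08 ± 0.35, adjusted p = 3.57e-05), Oas1a (1.84 ± 0.40) and Irf1 (1.59 ± 0.24) were higher in NanogBiD D12, while Ifit2 (-1.52 ± 0.27) and Lgals3bp (-1.50 ± 0.29) were lower. In NanogWT D12, Zbp1 (2.55 ± 0.32, adjusted p = 2.82e-06), Gbp2 (1.76 ± 0.27) and Ifi27 (1.44 ± 0.35) were higher than at D0. The mES library held 11.3 FPKM of Oas1a and 140 FPKM of Bst2 and was listed at 0 for Gbp2, Isg15 and Ifi44.

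At D10, 15 of 38 genes were lower in NanogBiD, beside 12.3% of all genes tested, and at D12 8 of 38, beside 9.97%. Without the 4 genes that passed the filter only through NanogWT these were 15 and 8 of 34, beside 12.1% and 9.82%. The largest difference at D10 was in a gene not called at D7. This was Ifi27, at 49.5 and 38.3 FPKM in NanogWT D10 and 8.57 and 5.10 FPKM in NanogBiD D10, with the differences at D10 and D12 past the threshold (-2.54 ± 0.35, adjusted p = 5.44e-06, and -1.92 ± 0.35, adjusted p = 0.000154).

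Gbp2 was lower in NanogBiD at D10 and at D12 (-1.95 ± 0.27, adjusted p = 4.65e-06, and -2.01 ± 0.27, adjusted p = 4.09e-06). Lgals3bp differed by -1.67 ± 0.29 and -1.37 ± 0.29 on those days, Zbp1 by -2.29 ± 0.32 and -1.57 ± 0.32, Gbp3 by -1.43 ± 0.26 and -1.34 ± 0.26, and Ifi35 by -1.56 ± 0.31 and -1.09 ± 0.31. The pairs of these 6 genes did not overlap on either day, a description of genes picked for large differences. Ifit2 (-1.18 ± 0.27) and Trim30a (-1.21 ± 0.25) completed the 8 at D12. Fibroblast markers summed to 2879 to 3341 FPKM in NanogWT at D10 and D12 and to 396.5 to 602.8 FPKM in NanogBiD, and pluripotency markers to 37.9 to 227.2 and 746.2 to 2273 FPKM. Macrophage markers summed to 8.10 to 45.6 FPKM in NanogWT and 3.98 to 7.98 FPKM in NanogBiD. The part of these markers, and of the greater depth of the NanogWT libraries, was not tested.

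Around the 38 genes, 57 other genes of the pathway were followed: ligands, receptors, kinases, inhibitors, sensors, inducers of interferon, and factors that restrict or silence retroviruses. The gene table lists some genes under an older and a current symbol, and each gene was counted once. Of these 57 genes, 43 passed the filter. At D7 against D0, 14 rose and none fell in NanogWT, where 12.0% of all genes rose, and 8 rose and 1 fell in NanogBiD, where 12.7% rose. Between the combinations at D7, 6 of the 43 were lower and 3 higher in NanogBiD, beside 4.65% and 5.79% of all genes.

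Among ligands, Ifnb1, interferon beta, was listed at 0 in every library except the 2 of NanogWT D7, at 0.0759 and 0.164 FPKM, and 1 of 12 ligand genes, Ifnz, passed the filter. The receptor chain Ifnar1 was at 13.1 FPKM (mean) in MEFs, 13.6 in NanogWT D0 and 19.7 in NanogWT D7, and at 17.6 and 19.1 FPKM in NanogBiD D0 and D7. Neither combination was called for Ifnar1 at D7 (0.50 ± 0.12 in NanogWT and 0.12 ± 0.12 in NanogBiD), nor for Ifnar2 (-0.10 ± 0.14 and -0.27 ± 0.14). At D7 NanogBiD and NanogWT differed by -0.04 ± 0.12 in Ifnar1 and by -0.23 ± 0.14 in Ifnar2.

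Of 7 other RNA-sensing genes tested, 2 were lower in NanogBiD at D7, and of 5 DNA-sensing genes 1. Ddx58, RIG-I, was at a mean of 40.5 FPKM in NanogWT D7 and 16.6 in NanogBiD D7 (-1.23 ± 0.25, adjusted p = 0.00101), and the endosomal sensor Tlr3 at 11.6 and 2.79 FPKM (-1.72 ± 0.25, adjusted p = 3.35e-05). Ifi204, a nuclear DNA sensor, was at 62.6 and 3.42 FPKM (-3.83 ± 0.25, adjusted p = 1.55e-09), and was already lower in NanogBiD at D0 (-1.52 ± 0.25, adjusted p = 0.00237) and on every day tested since. Sting1, which relays cytosolic DNA signals, rose in both, by 1.48 ± 0.29 in NanogWT and 1.34 ± 0.29 in NanogBiD, and differed by -0.28 ± 0.29 between them. Irf2 (-1.22 ± 0.14), Ifngr1 (-1.37 ± 0.20) and the membrane protein Ifitm3, which blocks virus entry (-1.29 ± 0.35), were also lower in NanogBiD. Its relative Ifitm1 went the other way, at a mean of 50.5 FPKM in NanogBiD D7 and 0.965 in NanogWT D7 (4.71 ± 0.47, adjusted p = 3.57e-07), as did the phosphatase Ptpn6 (1.92 ± 0.27) and Trim28, a corepressor that silences retroviruses (1.09 ± 0.17).

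**Figure D4:**
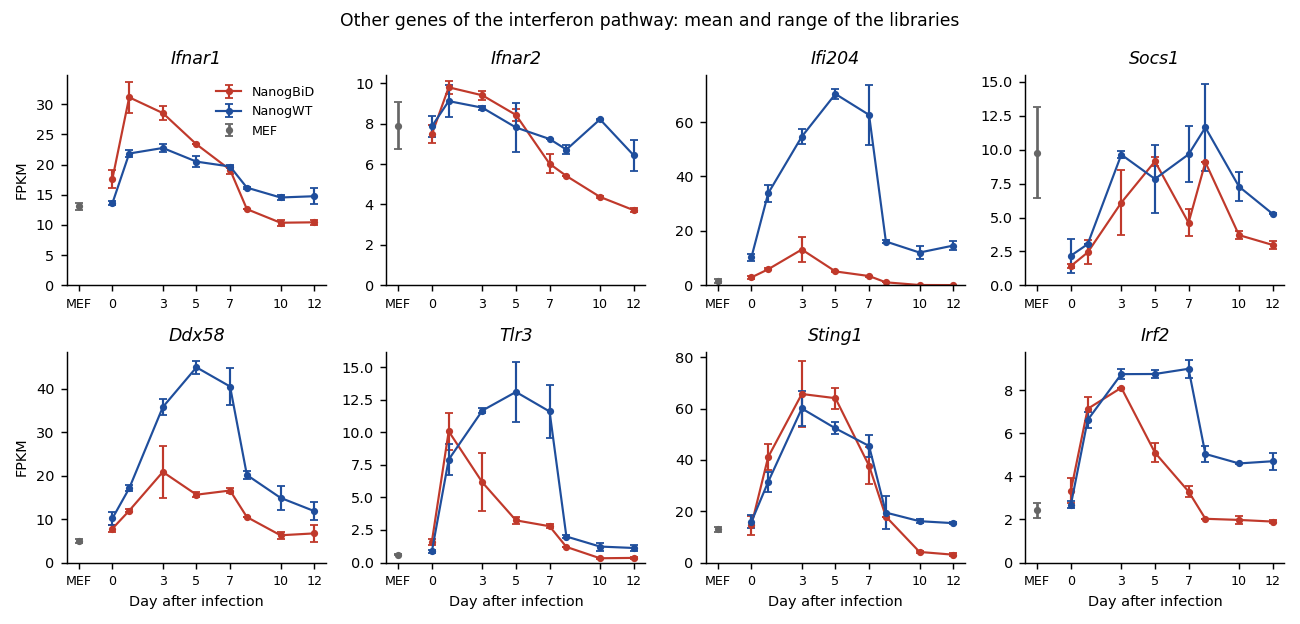
FPKM of 8 other genes of the interferon pathway by day; points are group means, bars span the libraries, red is NanogBiD, blue is NanogWT and grey is MEF. At D7 the ranges of Ifi204, Ddx58, Tlr3 and Irf2 do not overlap between the combinations, whereas those of Ifnar1 and Sting1 do.

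Among the 10 genes outside the list whose log2 level was most like the mean standardized level of the 38, of 16877 genes over 33 libraries, were Rtp4 (r = 0.969), Samd9l (r = 0.965), LOC108168990, Parp12, Cacna1e, 2310057N15Rik, Trim21, Slc43a3 and Ddx58 (r = 0.939). These are descriptions over libraries that share days, combinations and depth. Rtp4 was at a mean of 40.9 FPKM in NanogWT D7, 8.53 in NanogBiD D7 and 0.899 in MEFs.

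In established iPSC lines the response was mostly not detected. Of the 38 genes, 21 were under 1 FPKM in all 12 iPSC samples, among them Isg15, Ifit1, Irf7, Ifih1, Zbp1, Ifi44, Oasl2 and Usp18, and 25 were under 1 FPKM in mES. Uninfected MEFs were alike in this: 16 and 12 of the 38 genes were at 1 FPKM or more there, beside 12 to 15 in each iPSC sample. Mx1 was listed at 0 in all 12. The depth of this table is unknown, so no floor can be given. Ifit1 had a highest value of 0.252 FPKM and Isg15 of 0.585 FPKM.

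Another 12 genes were at 1 FPKM or more in every iPSC sample: Eif2ak2, Stat2, Irf1, Irf9, Trim25, Oas1a, Bst2, Samhd1, Parp9, Dtx3l, Ifi35 and Xaf1. Oas1a ran from 6.30 to 17 FPKM with a median of 10.8 in the 6 NanogBiD samples and from 3.81 to 20.7 with a median of 14.6 in the 6 NanogWT samples, against 0 and 0.232 in MEFs and 12.8 in mES. Xaf1 had a median of 11.0 in NanogBiD (5.46 to 15.9) and 11.4 in NanogWT (2.47 to 16.6), against 0.565 and 1.78 FPKM in MEFs. Bst2 had medians of 10.0 (6.25 to 35.8) and 21.1 FPKM (7.84 to 28.7), below the 134.1 FPKM of the mES library in the same table. The labels name lines iPSC1 and iPSC2, which the groups hold in unlike shares, so these medians do not separate line from combination.

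Of the 16 genes tested between iPSCs and MEFs, 7 were called, beside 40.7% of all 13312 genes tested, a share near the background. Higher in iPSCs were Oas1a (3.45 ± 0.42, adjusted p = 9.6e-06), Xaf1 (2.44 ± 0.52, adjusted p = 0.000947) and Trim25 (1.46 ± 0.14, adjusted p = 1.05e-06). Lower were Ifi27 (-2.89 ± 0.48, adjusted p = 0.000135), Lgals3bp (-2.45 ± 0.50, adjusted p = 0.000772), Ifit2 (-1.96 ± 0.21, adjusted p = 3.05e-06) and Ifi35 (-1.22 ± 0.27, adjusted p = 0.00128). Lgals3bp, at 10.1 FPKM, and Ifi27, at 6.49 FPKM, were highest in the NanogBiD iPSC sample of replicate number 9, in which fibroblast markers summed to 1677 FPKM, beside 164.1 to 630.1 FPKM in the other 11 samples and 7363 to 7989 FPKM in MEFs.

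Between NanogBiD and NanogWT iPSCs limma called 0 of 15 genes tested, beside 0.0% of all 12456 genes, where 201 genes but none of the 15 had an unadjusted p under 0.05. The median difference over the 15 genes was -0.02. NanogWT samples 1# and 1#-2 share a number in their labels, which do not say what it stands for, and were counted as 2 samples. With their mean as 1 sample 0 genes were called as well. Every iPSC2 sample was labelled with a lower passage than every iPSC1 sample, so line and this step in passage cannot be told apart. Passage also varied within iPSC1. The line was a covariate of the fit, and passage was not.

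**Figure D5:**
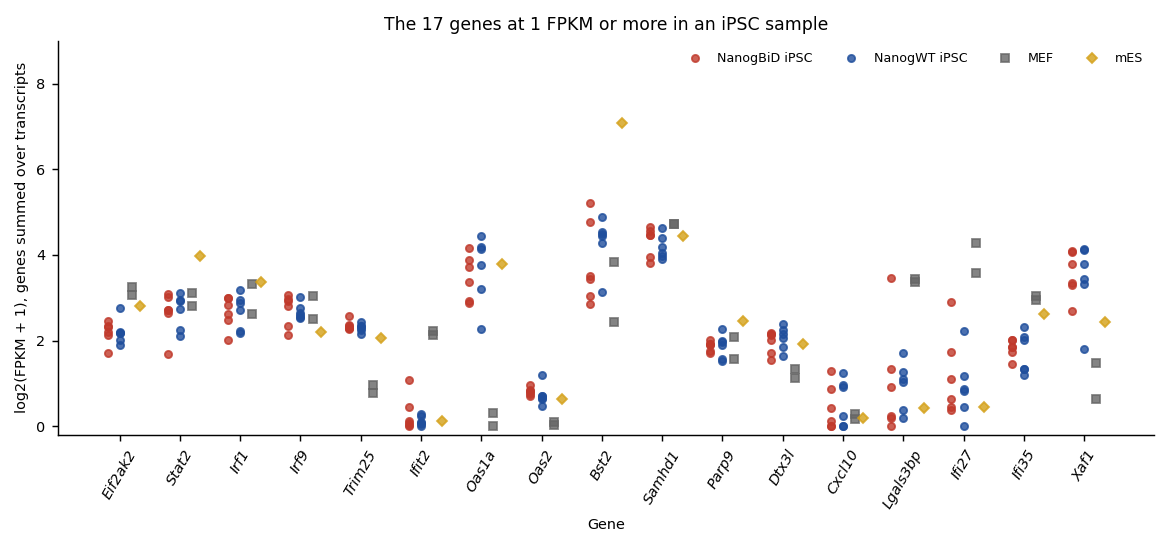
log2(FPKM + 1) of the 17 genes that reached 1 FPKM in at least 1 iPSC sample, in NanogBiD iPSCs (red), NanogWT iPSCs (blue), MEFs (grey squares) and mES (yellow diamond); each point is a sample. Oas1a and Xaf1 lie above MEFs in all 12 iPSC samples, and the 2 iPSC groups overlap for every gene.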

How the data were processed

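Expression was measured by RNA-seq, and per the labels and the study's methods the authors trimmed reads with Trim Galore (0.6.4), aligned them to mm10 with HISAT2 (2.2.1) and estimated expression with StringTie (2.2.1). The deposited values are FPKM, which the authors normalised for transcript length and sequenced reads. Counts, the annotation and the strand setting are not given in the sources used here. Rows of 1 gene symbol were summed, which in the iPSC table joins transcripts. Relative depth was estimated from the steps of low FPKM values in the gene table, and the depth of the iPSC table is unknown.

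Genes at 1 FPKM or more in at least 2 samples of a fit were tested with limma (3.58.1, R 4.3.3) on log2(FPKM + 1) with a mean-variance trend and Benjamini-Hochberg adjustment. The time course was fitted with 31 libraries in 16 groups, contrasts with MEFs with 33, and iPSC samples with line as a covariate. The code was tested on simulated data. Promoters and their sequences came from RefSeq (GRCm38.p6), and gene positions from GENCODE M21. Figures were drawn with matplotlib (3.10.9).

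The 38 members and the other lists were chosen with earlier results of these data known. At most 8 called members per comparison, those of the largest absolute difference, were named with statistics. Values in every library were given for those named in more than 1 comparison and for Isg15, Ifit1, Irf7, Stat2 and Ifih1. Further values, and the counts over genes that pass the filter on NanogBiD libraries alone, were chosen after values were seen. Mx1 and Oas2, which do not pass so, were left without statistics between the combinations. Of other genes, Ifnb1, Ifnar1 and Ifnar2, called pathway genes and the 10 most alike were eligible. A withheld item is not reported here. Alternatives were a pseudocount of 0.1, no filter, rescaling to TPM, quantile normalization, no fold limit, the compared groups alone, a replicate block, and each replicate or iPSC sample left out.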

Additional observations from a re-analysis of the deposited data

Results flagged for a closer look

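In the iPSC samples 15 members were tested for a sample far from the others of its group, over 30 groups of 6, where chance gives about 1 in 20. The gap to the nearest sample, as a share of the range, passed Dixon's critical value in 5 groups. Stat2 was at 2.2 FPKM in NanogBiD iPSC 9, below the 5.24 to 7.44 FPKM of the other 5 samples (gap share 0.688), and this sample had the highest sum of fibroblast markers of the 12. Trim25 was at 4.94 FPKM in NanogBiD iPSC 4, above 3.80 to 4.14 FPKM (0.675). Eif2ak2 was at 5.75 FPKM in NanogWT iPSC 2, above 2.69 to 3.56 FPKM (0.651), and Xaf1 at 2.47 FPKM in the same sample, below 8.91 to 16.6 FPKM (0.647). Bst2 was at 7.84 FPKM in NanogWT iPSC 6, below 18.5 to 28.7 FPKM (0.651). Each group mixes both lines, which this rule did not take into account.

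By the interaction test, the change from D0 differed between the combinations for 16 of 38 members at D5, beside 3.94% of all genes tested. At D7 it differed for 22 of 38, beside 4.88%. Without the 4 members that passed the filter only through NanogWT these were 12 and 18 of 34, beside 3.71% and 4.56%. In every called member the change was lower in NanogBiD.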

How the results depend on the processing

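Of 255 recomputed counts of called members, 215 stayed within 1.5 times the reported count, and of 1614 recomputed values of single genes 97 lost the call and none changed direction. A pseudocount of 0.1 gave 22 (NanogBiD) and 23 (NanogWT) members at D12 against D0, 8 and 7 at D0 against MEFs, and 20 for NanogBiD D12 against MEFs. TPM gave 17 and 24 at D12 against D0, 5 for NanogWT D0 against MEFs and 13 for iPSCs against MEFs. The cut at 1 was kept after this rescaling, so more genes were tested and the 13 are not out of 16. Shares called among all genes under the alternatives are not given here, so these counts are read without a background. Quantile normalization gave 7 for NanogWT D12 against D0, and 5 (NanogBiD) and 12 (NanogWT) for D12 against MEFs. Without the fold limit the counts were 14 for NanogBiD D1 against D0, 20 and 20 for D12 against D0, 5 for NanogWT D0 against MEFs and 20 for NanogBiD D12 against MEFs. No filter gave 1 for NanogWT D0 against MEFs. With the compared groups alone they were 0 at D0 and 2 at D3 between the combinations, 5 for NanogWT D1 against D0 and 0 for NanogWT D0 against MEFs.

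Leaving out 1 replicate, with the lone sample assumed to vary like the other groups, gave between the combinations 0 members at D0, 3 to 15 at D3 and 16 to 17 at D5. For the difference in change from D0 it gave 10 to 11 at D5 and 10 to 16 at D7. Against D0 it gave 1 to 6 (NanogBiD D1), 5 to 8 (NanogWT D1), 6 to 11 (NanogBiD D12) and 6 to 17 (NanogWT D12), and against MEFs 2 to 3 (NanogBiD D0) and 1 to 6 (NanogWT D0). The cause was not tested. The 15 at D3 came from leaving out NanogBiD D3 replicate 2 alone, chosen after seeing the data.

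The replicate number was also fitted as a block. It gave 28 members at D7 and 25 at D5 between the combinations, 20 for the difference in change to D5 and 10 for NanogBiD D1 against D0, and moved no count by over 1.5 times. With 2 pairs a day, the deviations of same-numbered libraries correlated between -0.0647 and 0.395 over days, so the numbers were not taken to pair the libraries.

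Where the NanogWT libraries were deeper (D8 to D12), low values are better resolved in NanogWT than in NanogBiD.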
